A study of Mus musculus with 12 samples.

Results

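DNA repair genes were followed in cultured mouse bone marrow cells exposed to indole-3-propionic acid (IPA), a tryptophan metabolite made by gut bacteria. The 54 genes were those of a fixed list of symbols, sorted into 8 classes by the lesion or step they act on, and all 54 were found among the 54532 genes counted. They comprise 26 genes of double-strand break repair and its signalling, 6 of the Fanconi pathway, 3 of mismatch repair and 19 of excision repair and lesion bypass. The cells came from the bone marrow of wild-type (WT) C57BL/6 mice and were grown for 5 days in medium with GM-CSF and IL-6, cytokines that drive the production of myeloid cells. All 12 cultures held these cytokines, and they differed in the addition made: vehicle (0.1% DMSO), 10 µM IPA or 50 µM IPA, with 4 libraries in each group. The study's methods give female mice aged 8 to 14 weeks for its experiments, and the labels give no age for these cultures. Bulk cultures hold a mixture of cell types, so fewer cells of a type and less RNA per cell cannot be told apart in these values. The labels do not say whether the 4 libraries of a group came from separate mice or cultures, and the p-values measure only the spread between these libraries.

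Cells repair DNA through pathways that divide the work by lesion. Double-strand breaks are sensed by the kinases ATM and ATR, which act through CHK1 and CHK2, and they are rejoined either by homologous recombination, which copies an intact sister chromatid and so is tied to DNA replication, or by end joining, which ligates the ends directly. The Fanconi proteins unhook crosslinks between the DNA strands, mismatch repair corrects errors of the replication fork, base excision repair removes small damaged bases, and nucleotide excision repair removes bulky lesions such as those made by ultraviolet light. In bone marrow, dividing progenitors depend on these pathways, and inherited loss of Fanconi genes leads to marrow failure. The study raised DNA repair as a category on these same libraries, so the direction of these genes here is not independent evidence on that point.

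Library depth ran from 20451312 to 28038612 reads assigned to genes. Counts were scaled to library totals as CPM. The tests covered 14894 genes that exceeded 0.5 CPM in 2 or more libraries, and all 54 repair genes were among them. Levels are given as CPM after TMM normalization, and levels of different genes were compared only after division by exon length. Each comparison was tested on its 8 libraries with edgeR's quasi-likelihood test, and a gene was called at a Benjamini-Hochberg adjusted p under 0.05 over all genes tested. The 3 comparisons share libraries in pairs, so they are not independent of each other. Strand use in the counting is not given in the sources used here, and 26 of the 54 genes share exon bases with another annotated gene.

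The lowest count of any repair gene in any library was 29, for *Ddb2*. With vehicle, the level per kilobase of exon ranged from 0.697 CPM for *Fancc*, a subunit of the Fanconi core complex, to 27.7 CPM for *Parp1*, the enzyme that marks strand breaks with poly(ADP-ribose). The median over the 54 genes was 3.37 CPM per kilobase, against 4.63 over all genes tested. *Ercc3*, a helicase of the transcription factor TFIIH, and *Msh6*, which recognises mismatches, followed *Parp1* at 21.7 and 15.5 CPM per kilobase. *Parp1* and *Fancc* remained the highest and the lowest of the 54 at both doses.

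**Figure D1:**
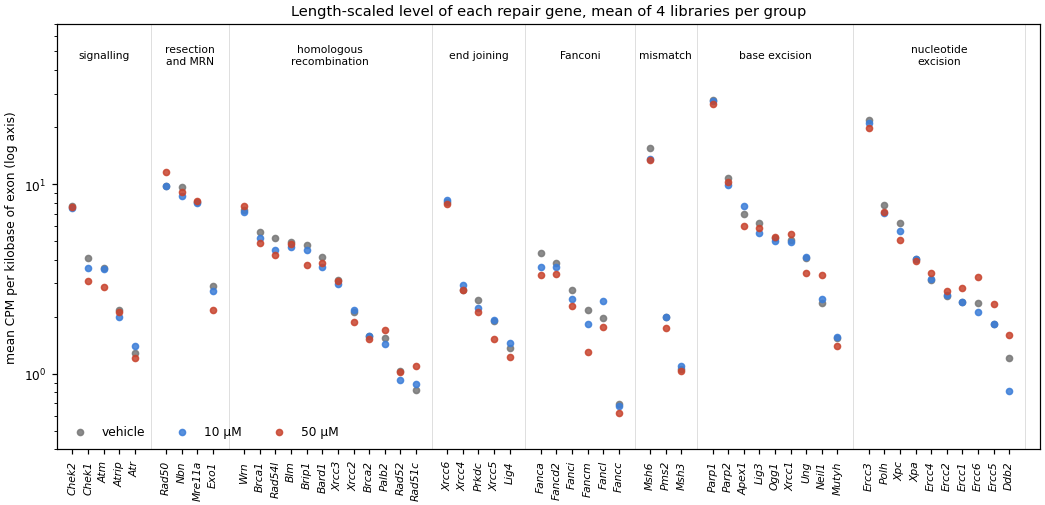
Mean CPM per kilobase of exon over 4 libraries for each of the 54 repair genes (log axis), grouped by class and ordered by the vehicle level, in vehicle (grey), 10 µM (blue) and 50 µM IPA (red). *Parp1* at 27.7 and *Ercc3* at 21.7 stand highest with vehicle, and for most genes the 3 points lie close together.

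At 10 µM IPA none of the 54 repair genes was called against vehicle by edgeR's test, where 0.410% of all genes tested were called, 0.329% higher and 0.0806% lower. DESeq2 and limma-voom also called 0, and at an unadjusted p under 0.05 edgeR's test found 3 of the 54 genes, all lower, against 8.78% of all genes, of which 3.36% were lower. These 3 were *Rad54l*, a motor protein of strand exchange, *Msh6* and *Ddb2*, a sensor of ultraviolet damage. Of the 54 log2 fold changes, 36 (66.7%) lay below 0, compared with 51.8% over all genes, and their median was -0.04 against -0.01. For 46 genes the 95% interval of the log2 fold change lay within 0.5 of 0 on either side.

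*Rad54l* measured 41.7, 41.8, 38.5 and 39.0 CPM in vehicle replicates 1 to 4, 33.7, 35.7, 34.5 and 35.5 at 10 µM, and 37.1, 30.0, 27.9 and 35.9 at 50 µM. All libraries of either dose lay below all vehicle libraries. Its log2 fold change at 10 µM was -0.21 (SE 0.07, edgeR adjusted p = 0.287) and at 50 µM -0.29 (SE 0.10, adjusted p = 0.0636), neither of which passed the test. *Chek1* and *Ddb2* were the other repair genes whose 10 µM libraries all lay below the vehicle libraries, so 3 of the 54 lay apart from vehicle and all 3 below it. Over all genes 2.56% lay apart below vehicle and 3.57% above it.

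In the study's cultures viability was slightly lower at 50 µM, and for that reason its RNA-seq analysis centred on 10 µM. The part of viability in the values at 50 µM was not tested. At 50 µM IPA, 5 of the 54 repair genes were called against vehicle, and all 5 fell. They were *Brip1*, *Exo1*, *Chek1*, *Fancm* and *Xpc*, with log2 fold changes between -0.71 and -0.30. The share called was 9.26%, below the 13.5% of all genes called in this comparison, of which 7.00% were higher and 6.50% lower. Of the 54 genes, 40 (74.1%) had a log2 fold change below 0, compared with 48.2% of all genes, and the median was -0.06 against 0.01. At an unadjusted p under 0.05, 9 were lower and 3 higher, where 27.9% of all genes passed, 13.5% lower and 14.4% higher. The groups did not overlap for 6 genes that were lower and 1 that was higher, against 10.5% of all genes lower and 9.45% higher. For 35 of the 54, the 95% interval lay within 0.5 of 0.

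Against 10 µM, 6 repair genes were called at 50 µM, 4 lower and 2 higher. *Exo1*, *Fancm*, *Fancl* and *Atm* fell, and *Ercc6* and *Ddb2*, both of nucleotide excision repair, rose. The share of 11.1% compares with 15.4% of all genes, 7.52% higher and 7.85% lower. At an unadjusted p under 0.05, 7 were lower and 5 higher, where 29.5% of all genes passed, 14.6% lower and 14.9% higher. The groups did not overlap for 8 genes that were lower and 3 that were higher, against 10.9% of all genes lower and 9.43% higher. Of the 54 log2 fold changes, 30 lay below 0 (55.6%, against 48.6% of all genes), and their median was -0.05 against 0.01.

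**Figure D2:**
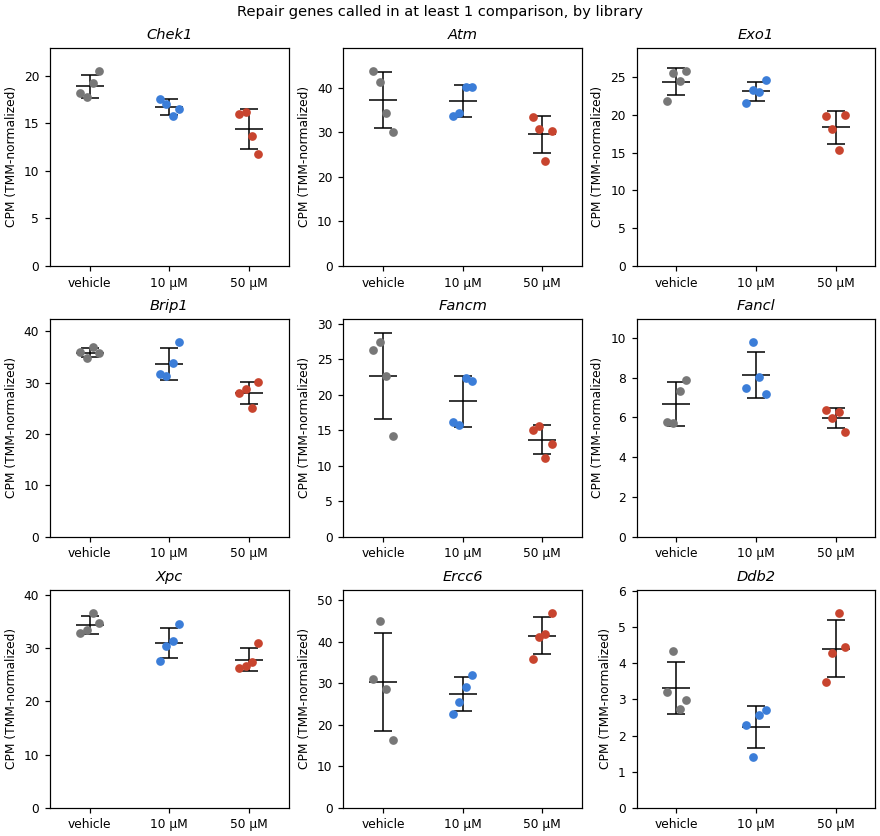
CPM (TMM-normalized) of the 9 repair genes called in at least 1 comparison, with 1 point per library, the mean of 4 libraries as a bar and the SD as whiskers. The 50 µM libraries lie lowest for *Exo1* and *Brip1*, and above the 10 µM libraries for *Ercc6* and *Ddb2*.

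Among the 5 damage signalling genes, *Chek1* fell at 50 µM. *Chek1* encodes the CHK1 kinase, which holds cells in S and G2 phase when replication stalls, and lies at chr9:36708482-36727065 on the minus strand (GRCm38). It measured 18.2, 17.8, 19.2 and 20.5 CPM with vehicle, 17.6, 17.0, 15.7 and 16.5 at 10 µM, and 15.9, 16.2, 13.6 and 11.7 at 50 µM. Every library of either dose lay below every vehicle library, with means of 18.9 ± 1.21, 16.7 ± 0.801 and 14.4 ± 2.12 CPM (SD, n = 4). The log2 fold change at 50 µM was -0.39 (SE 0.12, edgeR adjusted p = 0.0418) against vehicle and -0.21 (adjusted p = 0.222) against 10 µM. The call against vehicle ended without vehicle replicate 1, 3 or 4 and without 50 µM replicate 3 or 4, with adjusted p up to 0.113.

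*Atm*, the gene of the main kinase for double-strand breaks (chr9:53439149-53536740, minus strand), measured 43.7, 41.2, 34.3 and 30.0 CPM with vehicle, 33.7, 34.4, 40.2 and 40.2 at 10 µM, and 33.5, 30.8, 23.6 and 30.3 at 50 µM. The 50 µM libraries all lay below the 10 µM libraries, the closest pair by a small margin, and overlapped those with vehicle. It fell from 10 µM to 50 µM by 0.32 on the log2 scale (SE 0.10, adjusted p = 0.0451), and its change against vehicle was -0.33 (SE 0.13, adjusted p = 0.112). The call ended with all 12 libraries in the fit and when any of 6 of the 8 libraries was left out (10 µM replicates 2, 3 and 4 and 50 µM replicates 2, 3 and 4), with adjusted p up to 0.126. *Atr*, *Atrip* and *Chek2* were not called by edgeR's test in any comparison, and their log2 fold changes at 50 µM against vehicle were -0.06, -0.02 and -0.01.

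Of the 4 genes of end resection, *Exo1* fell in both comparisons of the higher dose. EXO1 is a nuclease that chews back DNA ends for recombination and also removes the error-bearing strand in mismatch repair, and its gene lies at chr1:175880581-175913489 on the plus strand. It measured 21.8, 25.5, 24.5 and 25.8 CPM with vehicle, 21.6, 23.3, 23.0 and 24.6 at 10 µM, and 19.9, 18.2, 15.3 and 19.9 at 50 µM. All other libraries lay above those of 50 µM. The log2 fold change was -0.40 (SE 0.10, edgeR adjusted p = 0.0205) against vehicle and -0.33 (SE 0.10, adjusted p = 0.0329) against 10 µM. Leaving out vehicle replicate 3 or 50 µM replicate 2 ended the first call (adjusted p up to 0.0578), and 10 µM replicate 2, 3 or 4 or 50 µM replicate 2 or 3 the second (up to 0.0797). The MRN complex, which binds broken ends, was encoded by genes that edgeR's test did not call in the reported fits. At 50 µM against vehicle *Mre11a* was at 0.02, *Nbn* at -0.06 and *Rad50* at 0.24 on the log2 scale. Between the doses *Rad50* was at 0.25 (SE 0.11, edgeR unadjusted p = 0.0317). There edgeR called it higher without the filter on low counts (adjusted p = 0.0273) and without 10 µM replicate 4 (adjusted p = 0.0496).

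In homologous recombination, *Brip1* was the 1 gene of 12 called by edgeR's test. BRIP1, also known as FANCJ, is a helicase that binds BRCA1, and its gene lies at chr11:86058138-86201193 on the minus strand. It measured 35.9, 34.8, 36.9 and 35.7 CPM with vehicle, 31.6, 31.2, 33.8 and 37.9 at 10 µM, and 27.9, 28.8, 25.1 and 30.2 at 50 µM. The vehicle libraries were close to each other (SD 0.887), and the 50 µM libraries lay below all libraries of the other groups. Its log2 fold change was -0.35 (SE 0.08, edgeR adjusted p = 0.0127) against vehicle and -0.26 (SE 0.09, adjusted p = 0.0574) against 10 µM. The call against vehicle held under all 16 alternative fits, with adjusted p up to 0.0478. Against 10 µM *Brip1* was called lower by DESeq2 (adjusted p = 0.0391). EdgeR called it there with all 12 libraries in the fit (adjusted p = 0.0416) and with an offset for exon length (adjusted p = 0.0302).

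The other 11 recombination genes were not called by edgeR's test in any comparison, and DESeq2 called *Rad54l* at 50 µM against vehicle (adjusted p = 0.0365). *Brca1*, *Bard1*, *Palb2* and *Brca2*, whose proteins together load the recombinase onto resected DNA, had log2 fold changes of -0.18, -0.10, 0.17 and -0.04 at 50 µM against vehicle. *Rad51c*, a paralog of that recombinase, measured 3.90, 3.27, 3.72 and 3.62 CPM with vehicle, 4.24, 3.24, 4.29 and 3.76 at 10 µM, and 4.54, 5.42, 4.86 and 4.49 at 50 µM. Its 50 µM libraries lay above all others, with a log2 fold change of 0.42 against vehicle (SE 0.16, adjusted p = 0.0934).

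No gene of end joining was called by edgeR, DESeq2 or limma-voom in any comparison, where edgeR called 0.410%, 13.5% and 15.4% of all genes. At an unadjusted p under 0.05 edgeR's test found none of the 5. Over all genes it found 8.78% at 10 µM, 27.9% at 50 µM against vehicle and 29.5% between the doses. *Xrcc5*, which encodes the larger Ku subunit, had the smallest p of the class and measured 3.71, 5.01, 5.11 and 5.69 CPM with vehicle, 5.07, 4.84, 5.04 and 4.76 at 10 µM, and 3.37, 4.03, 4.22 and 4.07 at 50 µM. Its 50 µM libraries lay below those of 10 µM and overlapped those with vehicle, with log2 fold changes of -0.32 (SE 0.15, unadjusted p = 0.0522) and -0.30 (SE 0.17). *Xrcc6*, the gene of the other Ku subunit and the highest of the class per kilobase, stood at 35.9 ± 0.674, 36.7 ± 1.98 and 35.2 ± 0.619 CPM (SD, n = 4) across vehicle, 10 µM and 50 µM.

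The 6 Fanconi genes of the list all had log2 fold changes below 0 at 50 µM, both against vehicle (median -0.23) and against 10 µM (median -0.13). EdgeR's test called 1 and 2 of them. Over all genes 48.2% and 48.6% lay below 0 and 13.5% and 15.4% were called. Of 10 further Fanconi genes tested outside the list, 6 lay below 0 in each comparison, with medians of -0.03 and -0.01. EdgeR's test called 0 of these further genes against vehicle and 1, which was higher, against 10 µM. Of the 6 among the 54, DESeq2 called 2 in each comparison, where it called 17.1% and 19.4% of all genes. At 10 µM, 5 of the 6 lay below 0 (median -0.11) and none was called by edgeR, DESeq2 or limma-voom, nor did any have an unadjusted p under 0.05 in edgeR's test. *Fancm* encodes the translocase that anchors the Fanconi core complex to DNA and lies at chr12:65075603-65132058 on the plus strand. It measured 26.3, 27.4, 22.6 and 14.1 CPM with vehicle, 16.2, 15.8, 22.4 and 21.9 at 10 µM, and 15.0, 15.6, 11.0 and 13.1 at 50 µM. Vehicle replicate 4 lay far below the other vehicle libraries and within the range at 50 µM, while the 50 µM libraries lay below all of those at 10 µM.

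The log2 fold change of *Fancm* at 50 µM was the largest fall among the 54 genes against vehicle, -0.71 (SE 0.18, edgeR adjusted p = 0.0183), and -0.47 (SE 0.14, adjusted p = 0.0300) against 10 µM. Without vehicle replicate 4 the first was -0.89. That call ended without vehicle replicate 1 or 50 µM replicate 3 or 4 (adjusted p up to 0.0620), and the second with all 12 libraries in the fit and without 10 µM replicate 3 or 4 or 50 µM replicate 3 or 4 (up to 0.102).

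*Fancl*, the ubiquitin ligase subunit of the core complex (chr11:26386135-26471876, plus strand), measured 5.79, 5.72, 7.30 and 7.87 CPM with vehicle, 7.50, 9.78, 8.05 and 7.19 at 10 µM, and 6.35, 5.97, 6.26 and 5.29 at 50 µM. The 50 µM libraries lay below those at 10 µM and overlapped those with vehicle. It fell from 10 µM to 50 µM by 0.44 on the log2 scale (SE 0.14, edgeR adjusted p = 0.0437), and against vehicle the value was -0.15 (adjusted p = 0.559). The call ended under limma-voom, without the filter on low counts, with all 12 libraries in the fit, and when any library but 10 µM replicate 1 or 4 was left out (adjusted p up to 0.155). *Vrk2*, on the opposite strand, shares 13.7% of the exon bases of *Fancl* and had a log2 fold change of 0.31 (adjusted p = 0.0638) in the same comparison; reads of the 2 genes could not be told apart there if strand was ignored.

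Of the mismatch repair genes *Msh3*, *Msh6* and *Pms2*, none was called by edgeR, DESeq2 or limma-voom, and *Msh6* at 10 µM was the 1 value with an unadjusted p under 0.05 in edgeR's test. Over all genes 8.78% had such a p at 10 µM, 27.9% at 50 µM against vehicle and 29.5% between the doses. *Msh6* measured 72.6, 64.3, 66.1 and 66.3 CPM with vehicle, 57.6, 55.9, 57.8 and 64.8 at 10 µM, and 58.2, 58.0, 49.9 and 68.2 at 50 µM. The groups overlapped at 50 µM, and at 10 µM through 1 library. Its log2 fold change was -0.19 at both doses against vehicle (edgeR adjusted p = 0.416 and 0.196), and -0.01 between the doses.

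Base excision repair and the repair of single-strand breaks held no gene called by edgeR or limma-voom among 9. At an unadjusted p under 0.05 edgeR's test found 0 at 10 µM, 1 at 50 µM against vehicle and 3 between the doses. Over all genes these shares were 8.78%, 27.9% and 29.5%. DESeq2 called *Neil1* in the second comparison and *Apex1* in the third. *Apex1*, the endonuclease that cuts at sites without a base, had the smallest p of the class and measured 10.3, 9.88, 10.1 and 9.26 CPM with vehicle, 10.2, 10.6, 11.1 and 11.9 at 10 µM, and 8.40, 9.71, 8.59 and 7.43 at 50 µM. The 50 µM libraries lay below those at 10 µM, with a log2 fold change of -0.35 (SE 0.12, edgeR adjusted p = 0.0574), and *Pip4p1* on the opposite strand shares 61.7% of its exon bases. *Parp1* stood at 147 ± 5.90, 145 ± 8.13 and 141 ± 11.8 CPM (SD, n = 4), with a log2 fold change of -0.05 at 50 µM against vehicle (95% interval from -0.21 to 0.11). *Neil1*, a glycosylase for oxidised bases, had the largest value above 0 in this comparison, 0.50 (SE 0.17, adjusted p = 0.0654). *Neil1* measured 4.54, 4.01, 3.99 and 5.13 CPM with vehicle and 6.30, 6.82, 4.71 and 6.97 at 50 µM, where 1 library overlapped the vehicle range.

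Nucleotide excision repair and lesion bypass held calls in both directions. *Xpc*, which encodes the sensor that opens repair across the genome (chr6:91489305-91515888, minus strand), measured 32.9, 33.3, 36.6 and 34.8 CPM with vehicle, 27.6, 30.5, 31.5 and 34.5 at 10 µM, and 26.2, 26.6, 27.5 and 31.0 at 50 µM. Vehicle libraries lay above all those of 50 µM, which overlapped the 10 µM range. *Xpc* fell at 50 µM against vehicle by 0.30 on the log2 scale (SE 0.08, edgeR adjusted p = 0.0314), and the call ended without vehicle replicate 3 or without 50 µM replicate 1, 2 or 3 (adjusted p up to 0.108).

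*Ercc6* encodes CSB, which starts repair where RNA polymerase has stalled, and lies at chr14:32513521-32580990 on the plus strand. It measured 31.1, 45.0, 28.5 and 16.3 CPM with vehicle, 22.6, 25.5, 29.0 and 32.0 at 10 µM, and 35.9, 41.1, 41.9 and 46.8 at 50 µM. The 50 µM libraries lay above all 10 µM libraries, and the vehicle libraries were spread over the range of both (SD 11.8). Its log2 fold change was 0.61 (SE 0.11, edgeR adjusted p = 0.00127) against 10 µM, the smallest p among the 54 genes, and 0.46 (SE 0.21, adjusted p = 0.173) against vehicle. Against vehicle it was called higher without vehicle replicate 2, the highest vehicle library (0.71, adjusted p = 0.0171), and without the filter on low counts (0.45, adjusted p = 0.0315). With all 12 libraries in the fit, which takes in those with vehicle, the adjusted p against 10 µM was 0.0643, and it remained called when any 1 of the 8 libraries was left out.

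*Ddb2* (chr2:91211572-91236982, minus strand), whose protein finds ultraviolet lesions and hands them to XPC, had the largest change between the doses among the 54 genes. It measured 3.22, 4.35, 2.73 and 2.98 CPM with vehicle, 2.28, 1.40, 2.56 and 2.70 at 10 µM, and 3.47, 4.29, 5.39 and 4.45 at 50 µM. The 10 µM libraries lay below all others, and those at 50 µM overlapped the vehicle libraries. Its log2 fold change was 0.97 (SE 0.23, edgeR adjusted p = 0.00813) between the doses, -0.57 (SE 0.24, adjusted p = 0.510) at 10 µM and 0.41 (SE 0.20, adjusted p = 0.199) at 50 µM against vehicle. The call between the doses held under all 16 alternative fits. *Acp2*, on the opposite strand, shares 23.8% of its exon bases and moved in the opposite direction, by -0.28 (adjusted p = 0.0117).

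The other 7 genes of the class were not called by edgeR's test. Among them *Ercc5*, a nuclease that cuts beside the lesion, had log2 fold changes of 0.36 (SE 0.19) against vehicle and 0.35 (SE 0.16, adjusted p = 0.162) against 10 µM, and *Ercc1*, a subunit of the nuclease that cuts on the other side, had 0.26 in both. *Xpa* was at -0.01 and *Polh*, the polymerase that bypasses ultraviolet lesions, at -0.11 against vehicle.

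**Figure D3:**
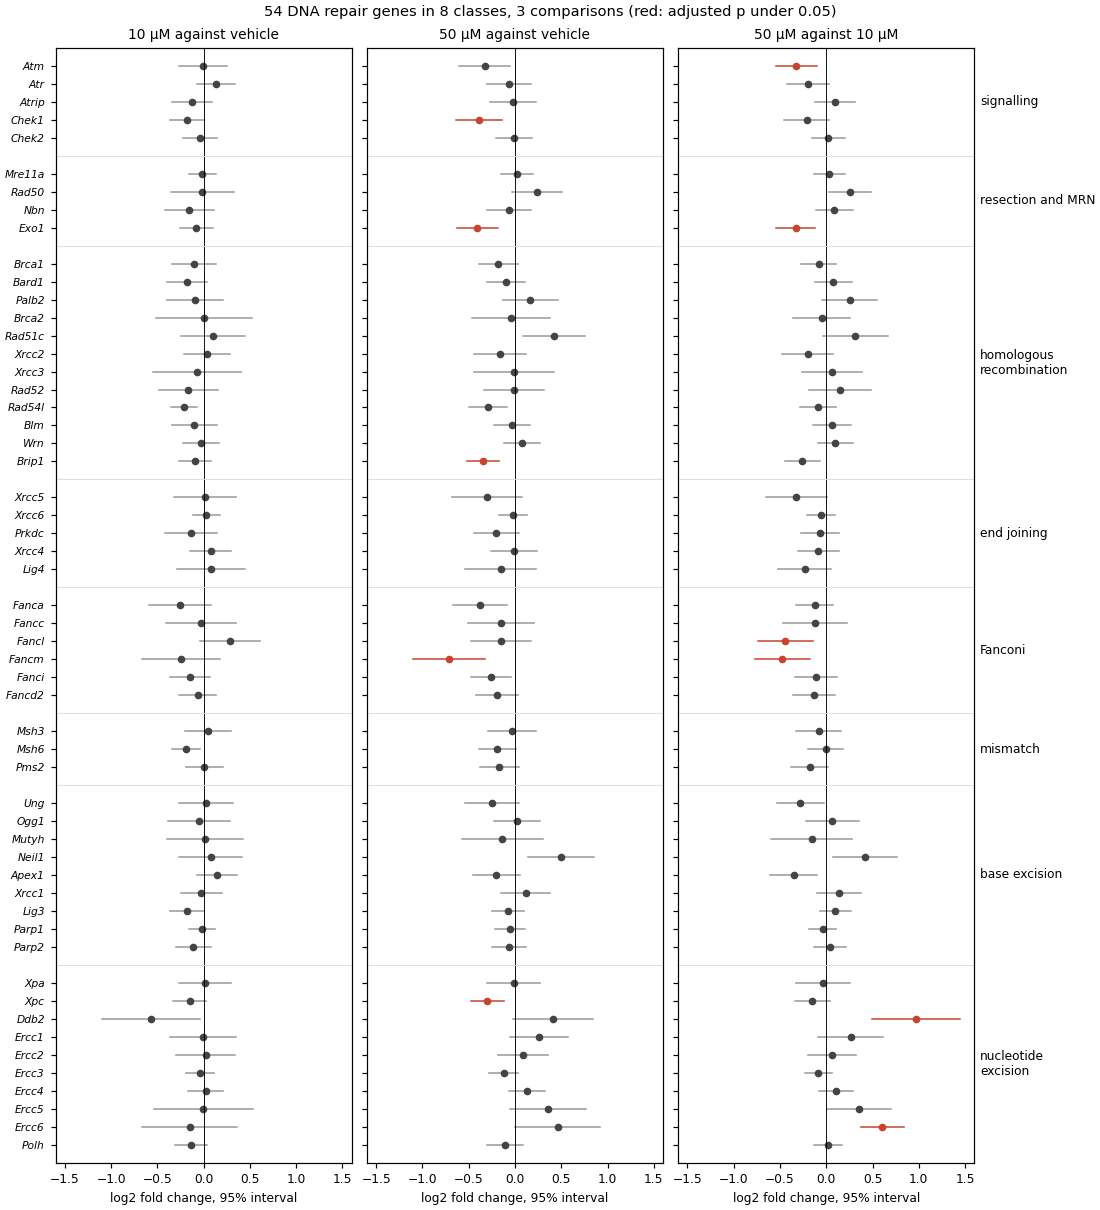
Log2 fold changes of the 54 repair genes with their 95% intervals in the 3 comparisons, grouped into 8 classes, with called genes in red. No gene is red at 10 µM, 5 are red on the left of 0 at 50 µM against vehicle, and between the doses 4 are red on the left and *Ercc6* and *Ddb2* on the right.

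Set side by side at 50 µM against vehicle, the median of the log2 fold changes was -0.05 for the double-strand break genes with 3 of 26 called, -0.23 for the Fanconi genes with 1 of 6, -0.17 for the mismatch genes with 0 of 3, and -0.01 for the excision genes with 1 of 19. These calls are 11.5%, 16.7%, 0% and 5.26% of each class, against 13.5% of all genes. Values below 0 were found in 21 of 26, 6 of 6, 3 of 3 and 10 of 19 genes, against 48.2% of all genes. Between the doses, the medians were -0.05, -0.13, -0.08 and 0.06. Repair genes outside the list were also tested at 50 µM against vehicle. Of these, 17 of 30 for double-strand breaks, 6 of 10 Fanconi and 0 of 3 mismatch genes lay below 0. So did 7 of 15 of base excision and 8 of 24 of nucleotide excision, bypass and direct reversal. Their medians were -0.05, -0.03, 0.14, 0.01 and 0.07, in that order. The direction of the listed Fanconi and mismatch genes was thus not shared by all genes of those pathways. The differences between the classes were not tested.

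Outside these 54 genes, 82 further repair genes were tested. None was called at 10 µM by edgeR, DESeq2 or limma-voom, and 4 had an unadjusted p under 0.05 in edgeR's test, against 8.78% of all genes. At 50 µM against vehicle, 7 rose and 4 fell (13.4%, against 13.5% of all genes), and the median of the log2 fold changes was 0.02. The 4 with the smallest adjusted p are given, of which 3 fell; the largest rise among the 7 was that of *Rad51b*, a paralog of the recombinase, at 0.87 (SE 0.23, adjusted p = 0.0224). *Gen1*, a resolvase of recombination junctions, fell by 0.51 (SE 0.09, adjusted p = 0.00164), and *Lig1*, the ligase of replication and excision repair, fell by 0.35 (SE 0.07, adjusted p = 0.0074) on the log2 scale. *Polk*, a bypass polymerase, rose by 0.51 (SE 0.11, adjusted p = 0.00727), and *Recql*, a helicase, fell by 0.42 (SE 0.09, adjusted p = 0.00849). Between the doses 7 rose and 3 fell (12.2%, against 15.4% of all genes).

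Several repair genes are transcribed mainly in S phase, and markers of the cell cycle were measured in the same libraries. Of 25 S phase genes, 15 fell and none rose at 50 µM against vehicle, the median being -0.36 on the log2 scale, and 17 fell between the doses. Their summed level was 2894 to 3263 CPM with vehicle, 2769 to 3012 at 10 µM and 2290 to 2478 at 50 µM. *Rrm2* and *Ccne2*, which encode a subunit of ribonucleotide reductase and a cyclin of S phase entry, fell by 0.44 (SE 0.07) and 0.67 (SE 0.11). Of 22 genes of G2 and M phase, 9 fell and none rose at 50 µM against vehicle (median -0.23), where 6.50% of all genes were called lower. At 10 µM none of these 47 genes was called by edgeR, DESeq2 or limma-voom, and 3 had an unadjusted p under 0.05 in edgeR's test, against 8.78% of all genes. Log2 fold changes below 0 at 10 µM were found in 21 of 25 S phase genes and 22 of 22 of G2 and M phase. Their medians were -0.09 and -0.12, and over all genes 51.8% lay below 0. Summed over the 54 repair genes, the level was 1310 to 1518 CPM with vehicle, 1295 to 1450 at 10 µM and 1270 to 1386 at 50 µM, ranges that overlap. The part of the cell cycle genes in the falls of *Chek1*, *Exo1*, *Brip1* and *Fancm* was not tested.

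Targets of p53, the transcription factor switched on by DNA damage, moved the other way. Of 20 such genes, which did not include the 54, 10 rose and none fell at 50 µM against vehicle (median 0.32), and 10 rose between the doses. *Plk2*, a kinase of the stress response, rose by 1.00 (SE 0.12, adjusted p = 0.000168), and *Cdkn1a*, the inhibitor of cell cycle kinases, rose by 0.44 (SE 0.07, adjusted p = 0.0018) on the log2 scale. The summed level of the 20 was 1371 to 1426 CPM with vehicle, 1390 to 1477 at 10 µM and 1698 to 1839 at 50 µM. At 10 µM edgeR and limma-voom called none and DESeq2 1. At an unadjusted p under 0.05 edgeR's test found 3, against 8.78% of all genes.

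**Figure D4:**
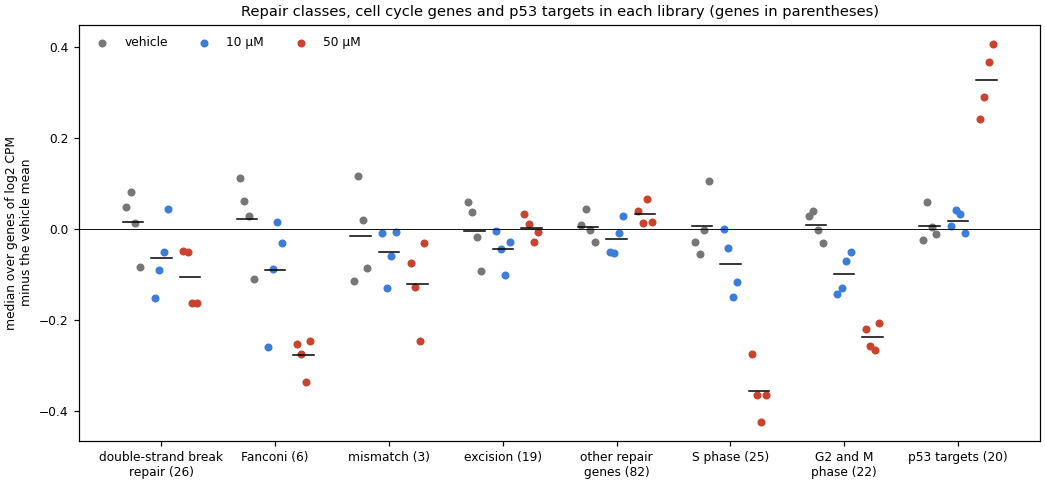
Median over genes of log2 CPM minus the vehicle mean, with 1 point per library and a bar for the mean of 4 libraries, for 4 groups of repair genes, 82 further repair genes, S phase genes, G2 and M phase genes and p53 targets. At 50 µM the S phase libraries lie between -0.42 and -0.27 and the p53 targets between 0.24 and 0.41, while the excision genes lie between -0.03 and 0.03.

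Markers of cell types also moved with the dose. Of 5 markers of neutrophil precursors, all 5 fell at 50 µM against vehicle (median -1.02), and their summed level was 1624 to 2347 CPM with vehicle, 1538 to 1719 at 10 µM and 776 to 1109 at 50 µM. Of 6 markers of Ly6C-high monocytes 3 fell, of 8 of mature neutrophils 3 fell and 1 rose, of 10 of macrophages 2 rose and 3 fell, and of 7 of progenitors 2 rose and 2 fell. Over all genes 7.00% were called higher and 6.50% lower at 50 µM against vehicle. Of 7 B cell markers 5 rose, at a summed level of 19.98 to 29.5 CPM with vehicle and 39.5 to 63.2 at 50 µM. Of 4 tested markers of T and NK cells none was called by any of the 3 tools or had an unadjusted p under 0.05, and of 2 erythroid markers *Tfrc* fell. At 10 µM edgeR's test called 3 macrophage markers and 1 of Ly6C-high monocytes higher, against 0.329% of all genes. DESeq2 called 5 and 2 of them higher and 1 neutrophil precursor marker lower. Between the doses edgeR's test called 7 of 10 macrophage markers lower and 1 higher, and 5 of 6 of Ly6C-high monocytes lower. The part of these cell types in the repair gene values was not tested.

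Some libraries stood apart for the repair genes. Within their groups, vehicle replicate 4 was the lowest library for 28 of the 54 genes, 50 µM replicate 3 for 25 and 10 µM replicate 1 for 20. In the same 3 libraries the genes with exon lengths over 9289 bases lay below their mean over all 12 libraries. The median deviations were -0.18, -0.10 and -0.11 on the log2 scale, and they include differences between the groups. The median exon length of the repair genes was 5705.5 bases, against 3872 for all genes tested. With an offset for the trend on exon length, the calls at 50 µM against vehicle numbered 8 (16.4% of all genes) in place of 5 (13.5%), and the median log2 fold change of the 54 was -0.08 in place of -0.06. Without vehicle replicate 4, the calls at 50 µM against vehicle numbered 10, 9 lower and 1 higher, beside 18.1% of all genes, and *Atm*, *Brca1*, *Rad54l*, *Prkdc*, *Fanca* and *Neil1* were added while *Chek1* was lost. They numbered 2 without vehicle replicate 3, and 3 without vehicle replicate 1 or without 50 µM replicate 2, 3 or 4, beside 8.38% to 10.02% of all genes in place of 13.5%. Between the doses they numbered 2 without 10 µM replicate 3, and 3 without 10 µM replicate 2 or without 50 µM replicate 2, 3 or 4, beside 10.8% to 13.3% of all genes in place of 15.4%.

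The sequence before the start site was searched for letters bound by regulators of cell cycle genes. Windows from 250 bases before to 50 after the start site (RefSeq, GRCm38.p6) were found for 44 of the 54 genes, 48 windows in all. The letters of E2F sites, searched on both strands as TTTCGCGC, TTTGGCGC, TTTCCCGC or TTTGCCGC, were present in 8 of the 48 windows (16.7%), compared with 2.26% of 32851 windows of all genes and 9 of 22 windows (40.9%) of the S phase genes. The 8 windows belong to *Bard1*, *Chek2*, *Brca2*, *Rad51c*, *Msh3*, *Msh6* and *Xrcc6*, none of which was called by edgeR's test in any comparison. CCAAT, on either strand, was present in 27 of 48 windows (56.2%) and in 37.4% of all windows. The letters of the CHR element of G2 and M phase genes, TTTGAA or TTCGAA on either strand, were present in 4 of 48 windows (8.33%), compared with 19.2% of all windows and 78.9% of those of the G2 and M phase genes. A match of letters is a description and not a binding site.

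The 250 bases before the start are shown for *Brip1* and *Fancm*, which fell, and for *Ercc6*, which rose, with CCAAT (or ATTGG, its form on the other strand) in capitals. They lie at chr11:86201194-86201443 on the minus strand, chr12:65075353-65075602 on the plus strand and chr14:32513271-32513520 on the plus strand (GRCm38.p6).
Brip1: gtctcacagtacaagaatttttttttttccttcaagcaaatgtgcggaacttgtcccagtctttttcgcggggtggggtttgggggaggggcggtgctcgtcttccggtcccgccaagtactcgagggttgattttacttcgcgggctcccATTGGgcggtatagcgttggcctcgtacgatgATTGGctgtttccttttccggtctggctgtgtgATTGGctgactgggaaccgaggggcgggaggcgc
Fancm: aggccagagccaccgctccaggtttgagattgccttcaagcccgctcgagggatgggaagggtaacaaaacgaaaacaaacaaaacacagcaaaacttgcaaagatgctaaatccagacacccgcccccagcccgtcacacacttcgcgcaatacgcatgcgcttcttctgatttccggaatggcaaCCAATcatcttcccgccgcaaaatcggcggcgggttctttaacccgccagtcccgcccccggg
Ercc6: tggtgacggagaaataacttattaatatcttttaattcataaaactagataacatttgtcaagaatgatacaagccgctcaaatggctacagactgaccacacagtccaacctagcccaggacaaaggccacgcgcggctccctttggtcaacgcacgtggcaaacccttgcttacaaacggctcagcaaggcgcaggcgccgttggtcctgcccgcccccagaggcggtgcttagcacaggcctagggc
The window of *Brip1* held 3 CCAAT boxes, that of *Fancm* 1 and that of *Ercc6* 0, and none of the 3 held the E2F letters. None of the other called genes with a window (*Atm*, *Chek1* and *Fancl*) held the E2F letters either.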

How the data were processed

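RNA-seq of 12 bone marrow cultures was used, 4 libraries per group. Reads were trimmed by the authors (Atropos) and aligned to mm10 (HISAT2 2.2.1), and featureCounts 2.0.1 gave the number per Ensembl gene, with versions from the submitters' processing notes. The deposited values are raw counts, whole numbers without normalization. Groups and replicate numbers follow the labels, and 1 library of the 10 µM group, whose title repeats another, follows its library name.

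Counts were tested with edgeR 4.0.16 (TMM, glmQLFit, glmQLFTest) in R 4.3.3, on the 8 libraries of each comparison, with adjustment over 14894 genes past the filter of more than 0.5 CPM in at least 2 of 12 libraries. The study used DESeq2; DESeq2 1.42.0 and limma 3.58.1 (voom) were alternatives, with DESeq2's size factors, no filter, a minimum of 10 counts in every library, all 12 libraries in the fit, a replicate block, an offset for the trend on exon length (lowess, span 0.3) and leaving out each library. SE is the absolute log2 fold change divided by the square root of F, and intervals are 95%. Exon lengths and positions are of GENCODE M21 (GRCm38). The test was checked on simulated counts. In a chi-square test of their counts, each pair of libraries of the same group differed by more than sampling noise.

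The 54 genes and the other lists were chosen with earlier results of these data known. Named were all called genes, in classes without one the gene of smallest p and the gene highest per kilobase, and at most 4 genes of each other list, those of smallest adjusted p. Further genes, such as *Rad51c*, *Neil1*, *Ercc5* and *Rad51b*, were picked for values of theirs after these were seen.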

Additional observations from a re-analysis of the deposited data

Results flagged for a closer look

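For 6 of 162 sets of 4 libraries (54 genes in 3 groups), 1 library stood away from the other 3 by more than Dixon's 95% critical value for the gap over the range, which chance gives in about 1 of 20 sets. *Chek2* was at 20.3 CPM in vehicle replicate 3 and at 23.6 to 24.2 in the other vehicle libraries. *Ercc3* was at 66.3 CPM in vehicle replicate 1, against 59.6 to 60.6. In 10 µM replicate 1 *Rad52*, a mediator of strand annealing, was at 4.35 CPM, against 5.57 to 5.72. In 10 µM replicate 3 *Neil1* was at 5.49 CPM, against 4.31 to 4.41. In 50 µM replicate 3 *Bard1* was at 19.1 CPM, against 22.3 to 22.7, and *Palb2*, which links BRCA1 to BRCA2, at 9.66 CPM, against 13.2 to 13.8. None of these 6 genes was called by edgeR's test in the 3 comparisons, and DESeq2 called *Neil1* at 50 µM against vehicle.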

How the results depend on the processing

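No repair gene was called at 10 µM under any of the 16 alternatives. At 50 µM against vehicle the 5 calls became 8 with DESeq2, 9 without the filter on low counts, 8 with the offset for exon length and between 2 and 10 when 1 library was left out, and the other alternatives gave between 4 and 7. The share of all genes called was 13.5% in the reported fit, 17.1%, 8.72% and 16.4% in the first 3 of these, and 8.38% to 18.1% when 1 library was left out. Between the doses the 6 calls became 3 with the replicate block and between 2 and 6 when 1 library was left out, and the other alternatives gave between 4 and 8, beside 15.4% of all genes in the reported fit, 14.8% with the block and 10.8% to 15.2% with 1 library left out. The block, by replicate number, gave 0, 4 and 3 calls in the 3 comparisons, in that order, without *Chek1* at 50 µM against vehicle and without *Atm*, *Fancm* and *Fancl* between the doses. Same-numbered libraries correlated between -0.24 and 0.14 in their deviations from the group means and did not all correlate best with their own number, so the numbers were not taken as pairs. No log2 fold change of a called gene changed sign under an alternative, and the median of the 54 stayed below 0 in all 3 comparisons. Leaving out a library moved that median between -0.08 and -0.01, -0.10 and -0.05, and -0.06 and -0.01.

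With 4 libraries per group, the median SE of the log2 fold change over the 54 genes was 0.11 to 0.12. Many of the log2 fold changes of the 54 were no larger than that SE, so a gene without a call is not shown to be unchanged. The smallest change that the test could call was not worked out.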
